A study of Mus musculus with 6 samples.

Results

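The genes described here encode the respiratory complexes II to V of the mitochondrial inner membrane together with cytochrome c, the carrier between complexes III and IV. They were taken by name from the authors' deposited table: symbols that start with Sdh and a letter from a to d, with Uqcr, with Cox and a digit, with Atp5, or with mt-Co, mt-Cytb or mt-Atp, plus Cyc1 and Cycs. This gave 67 of 13192 genes, 61 in the nuclear genome and 6 on the mitochondrial chromosome. Of them 51 encode subunits or cytochrome c, 45 nuclear and 6 mitochondrial, and 16 encode assembly factors or other proteins that share the name stems. None of the 67 was listed at 0 in either group and no filter on low values was applied, so all 67 enter every count unless stated.

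The study compared RNA precipitated with HA-tagged ribosomes from mouse cortex at postnatal day 25. There were 3 Rheb conditional knockout (Rheb cKO) libraries and 3 Control libraries. The titles give the Rheb cKO animals as Rheb floxp/floxp with Ribo-HA k/+ and Syn-Cre, and the Control animals as Rheb floxp/floxp with Ribo-HA k/+, so both groups share the floxed Rheb alleles and the ribosome tag and differ by Syn-Cre, usually a Cre driven by a synapsin promoter in neurons. The genotype label calls the first group a Rheb knockdown. The labels do not say how the Control ribosomes carried the tag without Cre, nor whether each library came from its own animal. Levels are in FPKM (fragments counted per gene, scaled to transcript length and library depth). The authors gave a single pooled FPKM for each gene in either group. The depth and the spread of single libraries are therefore unknown here and no SD can be given. Error is represented by the q-value of the authors' Cuffdiff test, adjusted over the whole table, and "called" means a q under 0.05. If libraries of a group are not separate animals, the test behind these q-values takes in the spread between libraries but not that between animals.

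Complex II (succinate dehydrogenase) and complex III (cytochrome bc1) feed electrons through cytochrome c to complex IV (cytochrome c oxidase), which reduces oxygen, and complex V (ATP synthase) uses the proton gradient so formed to make ATP. Cytochrome b of complex III, the catalytic core of complex IV and part of the proton channel of complex V are encoded by mitochondrial DNA and translated on mitochondrial ribosomes, whereas complex II and all other subunits are made on cytosolic ribosomes from nuclear genes. Neurons depend strongly on this machinery, and mTORC1, the kinase complex that Rheb switches on, is known to promote translation of nuclear-encoded mitochondrial proteins, ATP synthase subunits among them, and to act through Yy1 and Ppargc1a on transcription of mitochondrial genes.

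Rheb served as the check of the labels: it had 9.20 FPKM in Rheb cKO and 22.7 FPKM in Control in the authors' deposited table (log2 fold change -1.30, q = 0.00161, Cuffdiff). The label gives the cells as neurons. In the authors' deposited table the 6 pan-neuronal markers summed to 3067 FPKM in Rheb cKO and 2889 FPKM in Control, and 0 of them were called by Cuffdiff, while 7 markers of mature oligodendrocytes summed to 1287 FPKM in Rheb cKO and 3573 FPKM in Control, all 7 called lower. Both precipitates thus held RNA of myelin-forming cells, less of it in Rheb cKO. Of 6 astrocyte markers in the authors' deposited table, Cuffdiff called Gfap higher (log2 fold change 0.61, q = 0.0189) and Aqp4 lower (-0.54, q = 0.00161). The other astrocyte markers were not called, nor were the listed markers of microglia and endothelial cells. In such precipitates of pooled tissue, fewer cells of a type, less RNA per cell and less carry-over in the precipitation cannot be told apart. The part of these marker differences in the folds of the respiratory genes was not tested. No unprecipitated RNA was analysed here, so the amount of an mRNA and the share of it on ribosomes cannot be told apart either.

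Nuclear subunit genes were on balance slightly lower in Rheb cKO, and mitochondrially encoded ones were all above 0 on the log2 scale. Cuffdiff called 9 of the 67 members, 8 lower and 1 higher, where it called 8.72% of all genes in either direction. Called lower were 4.58% of all 13192 genes and 11.9% of the members. Called higher were 4.14% of all genes and 1.49% of the members. An unadjusted p under 0.05 was met by 18 members on the lower side and 3 on the higher side, and by 9.72% of all genes on the lower side and 11.4% on the higher side. Among the 45 nuclear subunit genes 34 had a fold below 0, which is 75.6%, against 45.4% of all genes with a finite fold. Their median log2 fold change was -0.14, beside 0.03 over all genes. The 8 called lower were Cox5a, Cox6b1, Cox6b2, Uqcr11, Atp5e, Atp5k, Atp5l and the assembly factor Sdhaf3, and the 1 called higher was mt-Co1. Most folds were small, and 59 of the 67 lay within 0.5 of 0 on the log2 scale. Summed over the 45 nuclear subunit genes, the FPKM in the authors' deposited table came to 24890 in Rheb cKO and 28060 in Control.

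**Figure D1:**
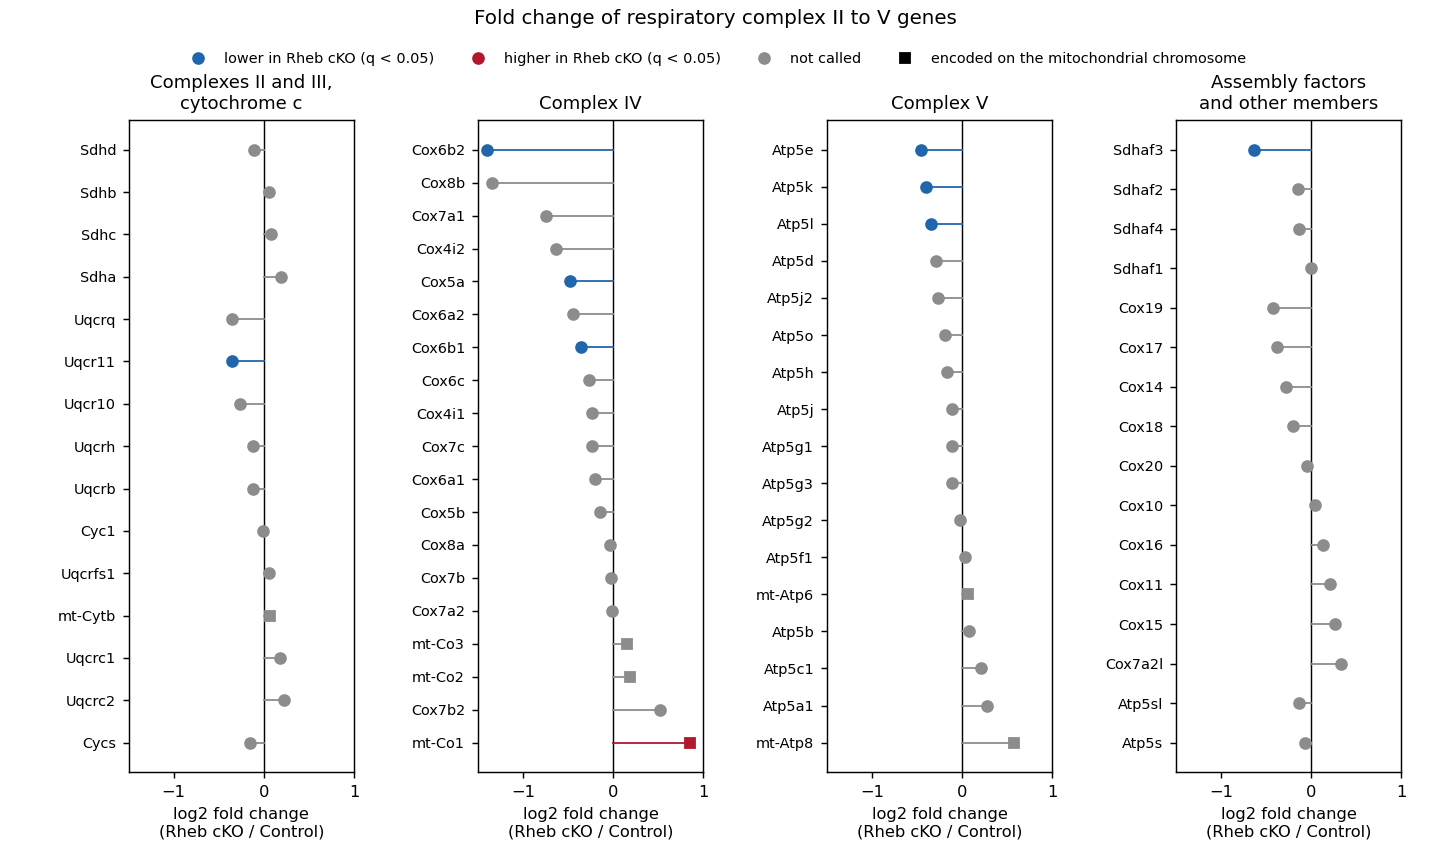
Log2 fold change (Rheb cKO over Control, x axis) of all 67 genes in the authors' deposited table, 1 row per gene, with complexes II and III and cytochrome c, complex IV, complex V and the assembly factors in separate panels; squares are mitochondrially encoded. The 8 genes called lower lie between -1.39 and -0.34, the 1 called higher (mt-Co1) lies at 0.85, and all 6 squares are right of 0.

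Promoter sequence, which the name rule did not use, was compared next. The promoters of all 7 nuclear subunit genes called lower are shown, with that of Uqcrc1, a core subunit gene that was not called, beside them, so that the presence or absence of known motifs near the start can be seen. Sequences are RefSeq promoters of build GRCm38.p6, cut to 120 bases before and 30 after the start of the transcript, 5′ to 3′ on the strand of the gene. Capitals mark complete matches on either strand to 3 motifs: CCGGAAG (the core bound by ETS factors such as Gabpa), GCGC and TGCGC with any 1 base between them (Nrf1) and GGGCGG (a GC box, bound by Sp factors). The windows are chr9:57521112-57521261 on the plus strand for Cox5a, chr7:30626085-30626234 on the minus strand for Cox6b1, chr7:4753065-4753214 on the minus strand for Cox6b2, chr10:80406792-80406941 on the minus strand for Uqcr11, chr2:174464072-174464221 on the minus strand for Atp5e, chr5:108434370-108434519 on the minus strand for Atp5k, chr9:44920713-44920862 on the minus strand for Atp5l and chr9:108936528-108936677 on the plus strand for Uqcrc1.
Cox5a: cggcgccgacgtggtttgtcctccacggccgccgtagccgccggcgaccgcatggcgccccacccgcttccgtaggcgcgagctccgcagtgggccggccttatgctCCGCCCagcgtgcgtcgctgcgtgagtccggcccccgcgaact
Cox6b1: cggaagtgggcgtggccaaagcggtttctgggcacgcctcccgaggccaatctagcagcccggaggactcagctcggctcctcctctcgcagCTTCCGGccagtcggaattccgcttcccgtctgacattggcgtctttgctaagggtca
Cox6b2: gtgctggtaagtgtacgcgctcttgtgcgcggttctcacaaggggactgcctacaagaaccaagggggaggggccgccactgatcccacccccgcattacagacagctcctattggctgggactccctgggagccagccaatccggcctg
Uqcr11: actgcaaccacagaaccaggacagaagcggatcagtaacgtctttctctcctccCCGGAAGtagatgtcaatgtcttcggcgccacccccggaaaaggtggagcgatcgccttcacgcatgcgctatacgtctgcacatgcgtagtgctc
Atp5e: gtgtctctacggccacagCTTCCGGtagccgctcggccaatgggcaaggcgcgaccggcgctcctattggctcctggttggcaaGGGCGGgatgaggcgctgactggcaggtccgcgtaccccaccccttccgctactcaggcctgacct
Atp5k: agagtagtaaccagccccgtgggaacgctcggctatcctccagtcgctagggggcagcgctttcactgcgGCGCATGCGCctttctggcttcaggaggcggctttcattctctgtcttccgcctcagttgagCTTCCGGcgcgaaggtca
Atp5l: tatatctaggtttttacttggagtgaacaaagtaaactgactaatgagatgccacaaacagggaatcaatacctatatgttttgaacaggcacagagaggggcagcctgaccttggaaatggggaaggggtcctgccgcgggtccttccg
Uqcrc1: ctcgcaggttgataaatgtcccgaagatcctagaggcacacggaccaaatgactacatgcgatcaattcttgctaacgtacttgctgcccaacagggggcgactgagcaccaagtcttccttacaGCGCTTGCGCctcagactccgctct

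The windows of Cox6b2 and Atp5l hold no complete match. A promoter was found for 46 of the 61 nuclear members and 34 of the 45 nuclear subunit genes, by symbol. Searched over 300 bases (250 before and 50 after the start), the ETS core CCGGAAG occurred in 12 of these 34 subunit genes, or 35.3%, in 5 of the 7 called lower, and in 19.7% of the 8765 listed protein-coding genes that averaged at least 1 FPKM. The Nrf1 motif occurred in 10 of the 34, or 29.4%, in 1 of the 7 called lower (Atp5k), and in 11.8% of the 8765. A GC box, by contrast, occurred in 12 of the 34, or 35.3%, in 3 of the 7 called lower, and in 71.0% of the 8765. The letters AAGATGGC, a core bound by Yy1, occurred in 2 of the 34, in 0 of the 7 called lower, and in 5.58% of the 8765. Over all 27025 genes with a RefSeq promoter the shares were 9.93% for the ETS core, 5.19% for Nrf1, 38.2% for the GC box and 3.19% for Yy1. Both strands were searched, overlapping matches of different motifs each counted, and a match is a description of the sequence, not a binding site. Of the 34 subunit genes 9 held none of the 4 motifs, so no motif was common to all. These letters were not limited to genes with a fold below 0: Uqcrc1 and Sdha held the Nrf1 motif and Sdhb the ETS core. Nor was the ETS core limited to called genes, since Atp5h, Cox6a1 and Cox8a, which were not called, held it too.

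Complex II, the enzyme shared with the citric acid cycle and the one complex with no mitochondrially encoded subunit, had 0 of 4 subunit genes called by Cuffdiff and 0 at an unadjusted p under 0.05. Sdha, the flavoprotein that oxidises succinate, had 99.99 FPKM in Rheb cKO and 87.8 FPKM in Control in the authors' deposited table (log2 fold change 0.19, q = 0.374). Sdhb, the iron-sulphur subunit, was the most abundant of the 4, with 298 FPKM in Rheb cKO and 286 FPKM in Control in the authors' deposited table (0.06, q = 0.854). The membrane anchors differed as little: in the authors' deposited table Sdhc had 63.6 FPKM in Rheb cKO and 60.4 FPKM in Control (0.07), and Sdhd had 73.7 FPKM in Rheb cKO and 79.5 FPKM in Control (-0.11). The median log2 fold change of the 4 was 0.07.

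Among the 4 Sdhaf genes, whose products help build complex II, the log2 fold changes all lay below 0. Sdhaf3, which helps the iron-sulphur subunit mature, was the 1 called lower, with 0.747 FPKM in Rheb cKO and 1.16 FPKM in Control in the authors' deposited table (-0.64, q = 0.0386). It was the lowest-expressed of the 4 and lies on the plus strand of chromosome 6 from 6956004 to 7042979 (GENCODE M21, mm10). With 1 added to each FPKM its log2 fold change was -0.31. Sdhaf2, which helps attach the flavin to Sdha, had 12.2 FPKM in Rheb cKO and 13.5 FPKM in Control in the authors' deposited table (-0.15, q = 0.585). Sdhaf1 and Sdhaf4, both assembly factors of the complex, stood at 0.00 and -0.14 in the authors' deposited table.

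In complex III the small subunits stood below 0 and the large core proteins above it. Of 9 nuclear subunit genes 1 was called lower and 0 higher by Cuffdiff. Uqcr11, a small peripheral subunit, had 1012 FPKM in Rheb cKO and 1292 FPKM in Control in the authors' deposited table (log2 fold change -0.35, q = 0.0374). Its position is chromosome 10, 80402997 to 80406830, minus strand (GENCODE M21, mm10). Uqcrq, which sits next to cytochrome b, had nearly the same values, 1018 FPKM in Rheb cKO and 1300.0 FPKM in Control in the authors' deposited table, with a higher q (-0.35, q = 0.0938). The other small subunits were Uqcr10 at -0.26 (q = 0.188), Uqcrh, the acidic hinge protein near cytochrome c1, at -0.12 (q = 0.619) and Uqcrb at -0.12 (q = 0.759) in the authors' deposited table. All 5 small subunits therefore had a log2 fold change below 0, with a median of -0.26 and 1 of them called.

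The core proteins Uqcrc1 and Uqcrc2, relatives of the mitochondrial processing peptidase, had log2 fold changes of 0.18 (q = 0.419) and 0.22 (q = 0.525) in the authors' deposited table. Uqcrc1 had 268 FPKM in Rheb cKO and 237 FPKM in Control in the authors' deposited table, and Uqcrc2 had 261 FPKM in Rheb cKO and 224 FPKM in Control. The nuclear redox subunits hardly differed between the groups. Cyc1, cytochrome c1, had 178 FPKM in Rheb cKO and 179 FPKM in Control in the authors' deposited table (-0.01, q = 0.978). Uqcrfs1, the Rieske iron-sulphur protein, had 114 FPKM in Rheb cKO and 110.1 FPKM in Control in the authors' deposited table (0.06, q = 0.872). Cycs, the mobile cytochrome c that takes the electrons on, had 70.1 FPKM in Rheb cKO and 78.1 FPKM in Control in the authors' deposited table (-0.16, q = 0.793). Neither these core and redox genes nor Cycs were called, and the small subunits were not tested against the core proteins.

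Complex IV had the lowest median of the 4 complexes, -0.25 over 16 nuclear subunit genes, with 15 folds below 0, 3 genes called lower and 0 higher by Cuffdiff. Without the 6 rare restricted isoforms described below, the median was -0.22 over 10 genes. With the trend on transcript length and GC content, also described below, removed from these 10, it was -0.09, beside -0.08 for complex V. Cox5a, which sits on the matrix side of the enzyme, had 444 FPKM in Rheb cKO and 616 FPKM in Control in the authors' deposited table (log2 fold change -0.47, q = 0.00625). It lies on the plus strand of chromosome 9 from 57521274 to 57532426 (GENCODE M21, mm10), in a stretch that Cuffdiff handled together with 1 other gene. Cox6b1, the subunit on the side of cytochrome c, had 1017 FPKM in Rheb cKO and 1304 FPKM in Control in the authors' deposited table (-0.36, q = 0.0327), at chromosome 7, 30616861 to 30626151, minus strand. Cox6b2, its testis-type isoform, had 1.65 FPKM in Rheb cKO and 4.33 FPKM in Control in the authors' deposited table (-1.39, q = 0.0265), on the same chromosome and strand at 4751792 to 4753094. Cox5a and Cox6b1 are abundant transcripts, whereas Cox6b2 made up 0.162% of the summed FPKM of both Cox6b genes in Rheb cKO and 0.331% in Control.

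The other nuclear subunits of complex IV that occur in a single form were not called. In the authors' deposited table Cox6c had 1208 FPKM in Rheb cKO and 1457 FPKM in Control (-0.27, q = 0.146), Cox7c stood at -0.23 (q = 0.262) and Cox5b at -0.14 (q = 0.714). Cox8a, a small membrane subunit, and Cox4i1, which binds the regulatory nucleotides of the enzyme, were the most abundant genes of the complex. Cox8a had 1876 FPKM in Rheb cKO and 1918 FPKM in Control in the authors' deposited table (-0.03, q = 0.935). Cox4i1 had 1532 FPKM in Rheb cKO and 1807 FPKM in Control in the authors' deposited table (-0.24, q = 0.760). Cuffdiff handled Cox4i1 in a stretch of 68 listed genes, and its q was higher than that of other members with a like fold.

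Several subunits of complex IV come in a ubiquitous form and in a form otherwise restricted to heart and skeletal muscle, testis, or lung and vessel walls. The 6 restricted isoforms were rare here, between 0.882 and 11.3 FPKM in Rheb cKO and between 0.816 and 15.4 FPKM in Control in the authors' deposited table. Their median log2 fold change was -0.69, beside -0.12 for the 6 ubiquitous partners, and 5 of the 6 lay below 0, with Cox6b2 the 1 called. Cox8b, the muscle form of Cox8a, had 0.882 FPKM in Rheb cKO and 2.23 FPKM in Control in the authors' deposited table (-1.34, q = 0.276). Cox7a1, the muscle form of Cox7a2, had 4.91 FPKM in Rheb cKO and 8.25 FPKM in Control in the authors' deposited table (-0.75, q = 0.186). Cox4i2, a form of lung and of mural cells of vessels, had 4.59 FPKM in Rheb cKO and 7.13 FPKM in Control in the authors' deposited table (-0.63, q = 0.142).

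Cox6a2, a muscle form also known from parvalbumin interneurons, had 11.3 FPKM in Rheb cKO and 15.4 FPKM in Control in the authors' deposited table (-0.45, q = 0.213). Cox7b2, a testis form, was the 1 restricted isoform above 0, with 1.17 FPKM in Rheb cKO and 0.816 FPKM in Control in the authors' deposited table (0.52, q = 0.814). Of the ubiquitous partners not yet given, Cox6a1 had 1074 FPKM in Rheb cKO and 1237 FPKM in Control in the authors' deposited table (-0.20, q = 0.307). Cox7a2 (-0.01, q = 0.984) and Cox7b (-0.02, q = 0.971) stood at 0 within 0.02 in the authors' deposited table. No restricted isoform exceeded 1.97% of the summed FPKM of its pair in Rheb cKO or 3.25% in Control, the values of Cox7a1.

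Some markers of vessel wall cells, fast-spiking interneurons and striated muscle were called lower in the same table, and others were not called. Testis markers were not examined. In the authors' deposited table the 7 listed markers of pericytes and smooth muscle, a list added after the values were seen, summed to 44.5 FPKM in Rheb cKO and 82.9 FPKM in Control, with 4 of 7 called lower and a median log2 fold change of -0.69. Pvalb, which defines the fast-spiking interneurons, had 57.7 FPKM in Rheb cKO and 111 FPKM in Control in the authors' deposited table (-0.94, q = 0.00161), while Kcnc1, Kcnc2 and Syt2 of the same list of 4 were not called. Of 5 markers of striated muscle, 2 were listed: Myh7 at -0.78 (called lower) and Tnnt2 at 0.38 (not called) in the authors' deposited table. The part of these cell types in the folds of the restricted isoforms was not tested.

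**Figure D2:**
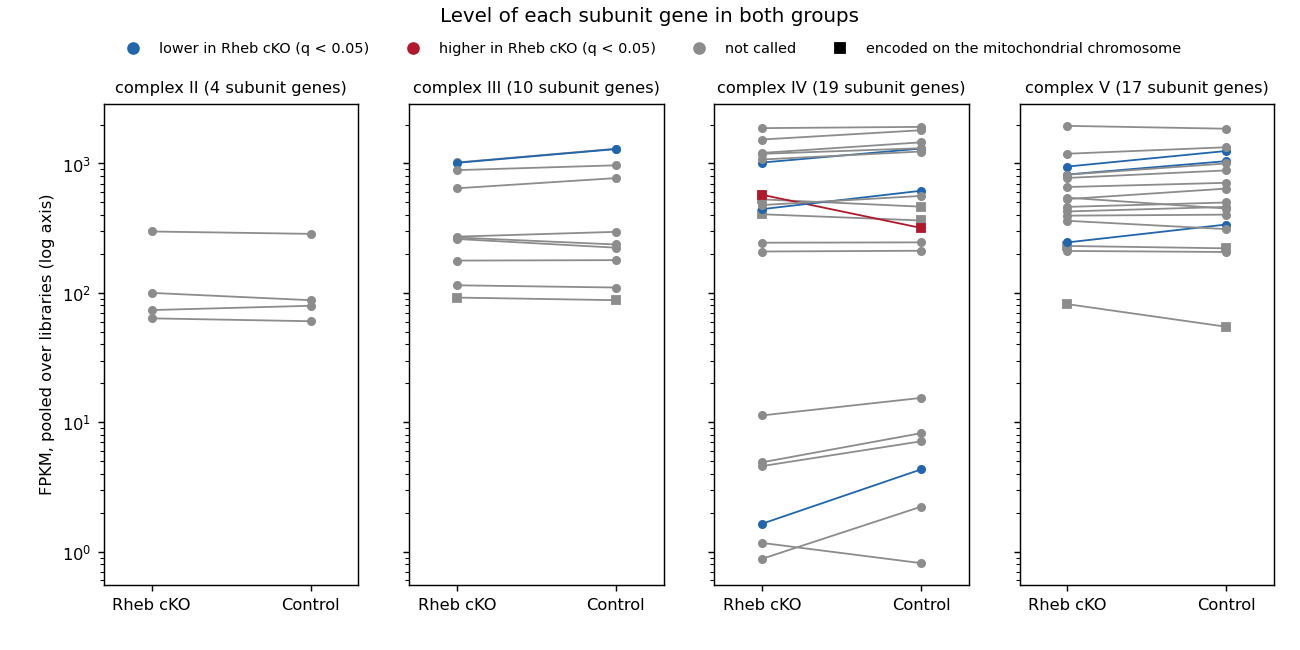
FPKM (log axis) of each subunit gene of complexes II to V in Rheb cKO (left) and Control (right) in the authors' deposited table, lines joining the 2 pooled values of a gene, squares for mitochondrially encoded genes. Most lines are nearly flat; the 6 restricted isoforms of complex IV lie at or below 15.4 FPKM, apart from the other subunits, and mt-Co1 has 573 FPKM in Rheb cKO and 318 FPKM in Control.

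The assembly factors of complex IV split evenly, 5 below and 5 above 0 with Cox7a2l included, and 0 of the 10 were called by Cuffdiff, while 3 lower and 1 higher had an unadjusted p under 0.05. The lowest were the copper-handling proteins of the intermembrane space. Cox17, the copper chaperone that loads the enzyme, had 206 FPKM in Rheb cKO and 268 FPKM in Control in the authors' deposited table (log2 fold change -0.38, q = 0.0527), which just missed the threshold. Cox19, its relative, had 31.3 FPKM in Rheb cKO and 42.2 FPKM in Control in the authors' deposited table (-0.43, q = 0.182). Cox14, which binds newly made mt-Co1 protein, lay at -0.29 in the authors' deposited table (q = 0.163).

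The heme A enzymes Cox10 (0.04) and Cox15 (0.27), the copper protein Cox11 (0.20) and the late factor Cox16 (0.12) were on the other side of 0 in the authors' deposited table, with q between 0.372 and 0.927. Cox18 (-0.20) and Cox20 (-0.05), which handle the mt-Co2 protein, were not called in the authors' deposited table. Cox7a2l, a relative of Cox7a2 that links complexes III and IV into supercomplexes, had 228 FPKM in Rheb cKO and 182 FPKM in Control in the authors' deposited table (0.33, q = 0.0622). It was the nuclear member closest to a call on the higher side.

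In complex V the called genes were small subunits of the rotor foot and of the membrane part. Over 15 nuclear subunit genes the median log2 fold change was -0.12, with 3 called lower and 0 higher by Cuffdiff. Folds of the subunit groups were not tested against each other. The large subunits of the catalytic head had folds above 0 and were not called: in the authors' deposited table Atp5a1 (alpha) had 544 FPKM in Rheb cKO and 449 FPKM in Control (0.28, q = 0.232) and Atp5c1 (gamma, the rotor shaft) had 361 FPKM in Rheb cKO and 311 FPKM in Control (0.21, q = 0.295). Atp5b (beta, which carries the catalytic sites) was the most abundant gene of the complex, with 1953 FPKM in Rheb cKO and 1857 FPKM in Control in the authors' deposited table (0.07, q = 0.873). The small subunits at the foot of the shaft lay on the other side. Atp5e (epsilon) had 246 FPKM in Rheb cKO and 338 FPKM in Control in the authors' deposited table (-0.46, q = 0.00956), at chromosome 2, 174461072 to 174464105, minus strand, and Atp5d (delta) had -0.29 (q = 0.443).

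The small membrane subunits of the dimer interface were below 0 as well, and 2 of the 3 nuclear ones were called lower. Atp5k (subunit e) had 947 FPKM in Rheb cKO and 1249 FPKM in Control in the authors' deposited table (-0.40, q = 0.0170), at chromosome 5, 108433244 to 108434448, minus strand. Atp5l (subunit g) had 822 FPKM in Rheb cKO and 1043 FPKM in Control in the authors' deposited table (-0.34, q = 0.0429), at chromosome 9, 44912557 to 44920742, minus strand. Atp5j2 (subunit f) lay at -0.27 in the authors' deposited table (q = 0.185). For Atp5l 9 other annotated genes, 8 of them pseudogenes, match at least 50% of its transcript at an identity of 95% or more, and for Atp5k 1 pseudogene does, so reads shared with these copies may bear on both values.

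No gene of the peripheral stalk or the c-ring was called, and their median log2 fold changes were -0.14 and -0.11. In the authors' deposited table the stalk genes were Atp5f1 (subunit b) at 0.03, Atp5j (coupling factor) at -0.12, Atp5h (subunit d) at -0.17, with 1190 FPKM in Rheb cKO and 1335 FPKM in Control, and Atp5o (the oligomycin sensitivity protein) at -0.19, all with q above 0.05. The genes Atp5g1, Atp5g2 and Atp5g3 encode the same mature c subunit with different import sequences. In the authors' deposited table their log2 fold changes were -0.11, -0.03 and -0.11. Atp5g3 gave 43.4% of their summed FPKM in Rheb cKO and 44.0% in Control, Atp5g1 30.5% in Rheb cKO and 31.0% in Control, and Atp5g2 the remainder. The mixture of c-subunit genes was therefore nearly the same in both groups. Atp5s and Atp5sl, which carry the name stem but are not subunits, stood at -0.07 and -0.14 and were not called in the authors' deposited table.

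The direction of the fold went with the length of the transcript. Of the 30 nuclear subunit genes with a transcript under 1000 bases (the median over protein-coding transcripts of the GENCODE M21 basic set), 29 had a fold below 0 and 7 were called lower, with a median log2 fold change of -0.27. Of the 15 with a longer transcript, 10 had a fold above 0 and 0 were called by Cuffdiff (at an unadjusted p under 0.05, 1 was higher and 0 lower), with a median of 0.06. Cox7b2 was the short gene above 0. The long group holds all of complex II, the core and redox subunits of complex III, Cycs, Cox7b, and Atp5a1, Atp5b, Atp5c1, Atp5f1 and Atp5g1. Across the 45 genes, which are not independent replicates, the rank correlation of fold with length was 0.68 (Spearman).

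A weaker relation held over the table: across the 11439 protein-coding nuclear genes averaging at least 1 FPKM, the same correlation was 0.19. Other genes under 1000 bases had a median log2 fold change of -0.07 over 941 genes. Of these 580 had a fold below 0, 60 were called lower and 22 higher. Longer ones had a median of 0.04 over 10439 genes, with 5859 folds above 0, 487 called lower and 449 higher. Whether the counts among the 45 subunit genes differ from these was not tested. With the trend of fold on transcript length and GC content removed, the median of the 45 subunit genes was -0.07, beside 0.03 over the genes of that fit. The 7 subunit genes called lower then had folds between -1.26 (Cox6b2) and -0.21 (Uqcr11). Their reported folds were far from 0 against the size of this step, so a kept sign says nothing about the calls. The calls were not tested again on these folds. After this step the short subunit genes had a median of -0.16 and the longer ones 0.10, and the correlation within the 45 was still 0.58. Not every group of short transcripts lay below 0: the 78 cytosolic ribosomal protein genes, with a median transcript of 764 bases, had a median log2 fold change of 0.12 with 9 called higher and 0 lower. The source of the relation with length was not tested.

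**Figure D3:**
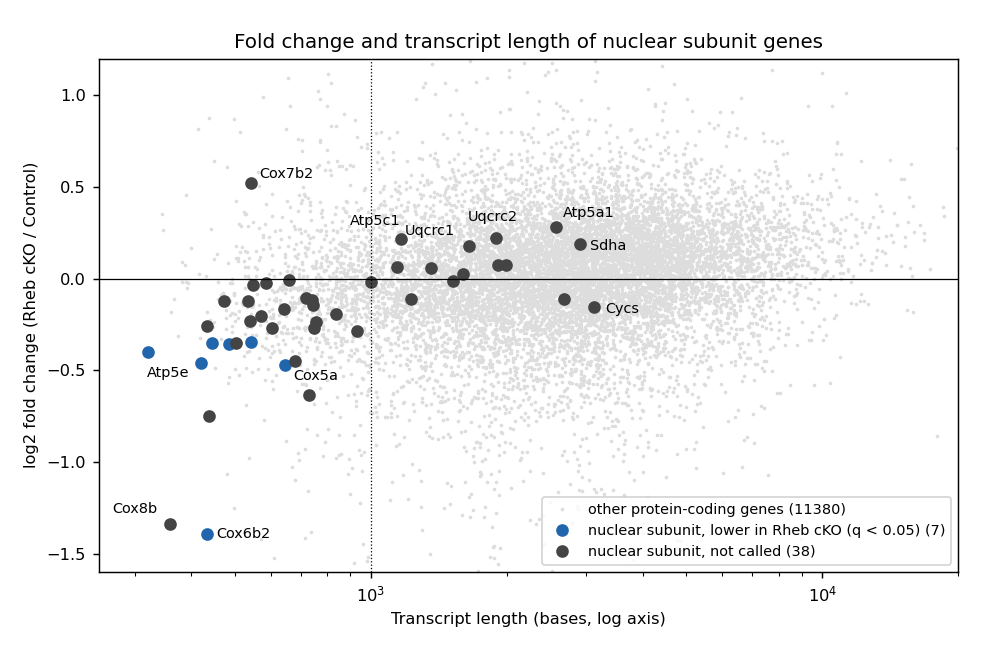
Log2 fold change (Rheb cKO over Control, y axis, shown from -1.6 to 1.2) against transcript length (x axis, log axis) for the 45 nuclear subunit genes, with other protein-coding genes in light grey; the dotted line marks 1000 bases. Left of it 29 of 30 subunit genes lie below 0, right of it 10 of 15 lie above 0.

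The mitochondrially encoded members had folds above 0, and mt-Co1 was called higher. Their mRNAs are known to be read by mitochondrial ribosomes, which differ in their proteins from the cytosolic ones. Whether RNAs of the mitochondrial chromosome were on tagged ribosomes or only came along in the precipitate was not tested. Their folds therefore need not measure the same thing as those of the nuclear subunit genes. Of the 6 genes 1 was called higher and 0 lower by Cuffdiff, all 6 log2 fold changes were above 0, and their median was 0.17. mt-Co1, the heme and copper subunit where oxygen is reduced, had 573 FPKM in Rheb cKO and 318 FPKM in Control in the authors' deposited table (log2 fold change 0.85, q = 0.00161). It lies on the plus strand of the mitochondrial chromosome from 5328 to 6872 (GENCODE M21, mm10). The other mitochondrial subunits of the enzyme were not called: mt-Co2, which takes electrons from cytochrome c, had 528 FPKM in Rheb cKO and 464 FPKM in Control in the authors' deposited table (0.19, q = 0.383), and mt-Co3 had 405 FPKM in Rheb cKO and 363 FPKM in Control (0.16, q = 0.625).

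mt-Cytb, the mitochondrial subunit of complex III, had 92.0 FPKM in Rheb cKO and 87.9 FPKM in Control in the authors' deposited table (0.07, q = 0.840). mt-Atp6, part of the proton channel, had 231 FPKM in Rheb cKO and 221 FPKM in Control in the authors' deposited table (0.06, q = 0.930). mt-Atp8 had 81.9 FPKM in Rheb cKO and 54.7 FPKM in Control in the authors' deposited table, with a q far from the threshold (0.58, q = 0.939). The coding sequences of mt-Atp8 and mt-Atp6 overlap and Cuffdiff handled both with mt-Co3 as a single stretch, so reads of these genes are hard to tell apart. mt-Co1, mt-Co2, mt-Co3 and mt-Atp6 each match at least 1 annotated pseudogene by the same measure as Atp5l.

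The rest of the mitochondrial chromosome did not move as a block. In the authors' deposited table the ribosomal RNAs mt-Rnr1 (0.50) and mt-Rnr2 (0.74) were called higher, each with q = 0.00161, whereas mt-Nd3, a complex I subunit, was called lower (-0.46, q = 0.0170). The other 6 listed mt-Nd genes lay between -0.09 and 0.56 with q above 0.05. The highest of them, mt-Nd6 (0.56, q = 0.0660) and mt-Nd5 (0.53, q = 0.0813), came close to a call. mt-Co1 was the 1 protein-coding gene of the chromosome called higher; whether its fold differs from those of its neighbours was not tested.

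**Figure D4:**
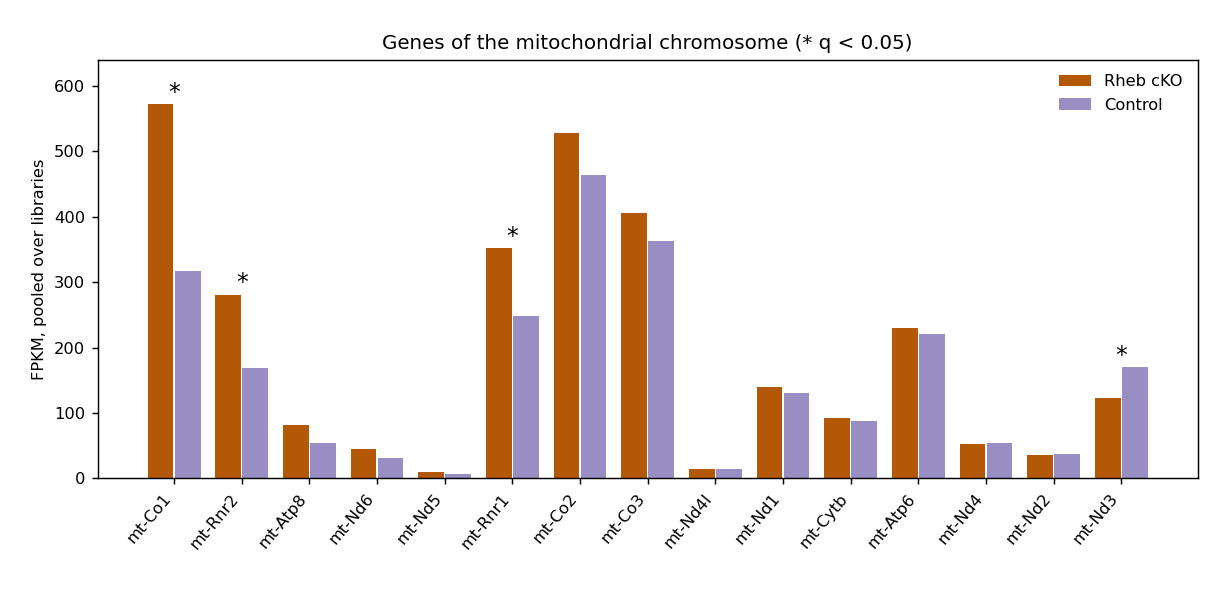
FPKM (y axis) of the 15 listed genes of the mitochondrial chromosome in Rheb cKO (left bars) and Control (right bars) in the authors' deposited table, ordered from the highest to the lowest fold; bars are pooled values without error and an asterisk marks q under 0.05. mt-Co1, mt-Rnr2 and mt-Rnr1 are called higher and mt-Nd3 lower.

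Other genes of the pathway were read from whole lists made by function. Over all genes 4.58% were called lower and 4.14% higher, and 9.72% and 11.4% had an unadjusted Cuffdiff p under 0.05. Whether the counts of calls in these and the following lists differ from those shares was not tested. Nuclear subunits of complex I, the entry point for electrons from NADH, had a median log2 fold change of -0.11 over 36 genes, with 31 below 0. At an unadjusted p under 0.05, 6 were lower and 0 higher. Cuffdiff called 2 lower and 0 higher. The 2 called were Ndufs5 (-0.43, q = 0.00785) and Ndufb7 (-0.36, q = 0.0381) in the authors' deposited table. Of 7 partners of complexes IV and V whose names fall outside the rule, all had a fold below 0 and 1 was called lower: Chchd10, an organiser of the inner membrane, had 529 FPKM in Rheb cKO and 744 FPKM in Control in the authors' deposited table (-0.49, q = 0.00161). Atpif1, the inhibitor of ATP synthase, had -0.23 (q = 0.237) and Usmg5, a small ATP synthase subunit, at -0.18 (q = 0.405) in the authors' deposited table.

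Of 6 assembly factors of complex III 1 was called lower, Uqcc2, with 313 FPKM in Rheb cKO and 440 FPKM in Control in the authors' deposited table (-0.49, q = 0.00161). Of 14 further assembly and copper-delivery genes of complex IV, 12 lay below 0 with a median of -0.23, and 0 were called by Cuffdiff (2 lower at an unadjusted p under 0.05). Coa3 (-0.30, q = 0.486) and Surf1 (0.29, q = 0.482) were the most abundant of them in the authors' deposited table. The 4 assembly genes of complex V had a median of -0.01 and 0 were called (0 at an unadjusted p under 0.05).

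Regulators of mitochondrial gene expression were not called either: of 17 genes 0 passed the Cuffdiff threshold and 0 had an unadjusted p under 0.05, with a median of 0.08. They include Ppargc1a, the coactivator of mitochondrial biogenesis (0.11, q = 0.745), Nrf1 (0.09, q = 0.847), Gabpa (0.35, q = 0.802), Yy1 (0.17, q = 0.627) and Tfam, the packaging protein of mitochondrial DNA (0.08, q = 0.933), in the authors' deposited table. Of the 17 genes 5 lay below 0, among them the most abundant, Esrra (-0.41, q = 0.557), and Polrmt (-0.02, q = 0.979). Carriers, channels and housekeeping proteins of the organelle, taken as a gauge of mitochondrial transcripts outside the respiratory chain, had a median of 0.06 over 15 genes with 11 above 0 and 0 called (0 at an unadjusted p under 0.05). The most abundant were Slc25a4, the ADP and ATP carrier, with 504 FPKM in Rheb cKO and 443 FPKM in Control (0.19, q = 0.375), and Vdac1, a pore of the outer membrane, with 321 FPKM in Rheb cKO and 281 FPKM in Control (0.19, q = 0.342), in the authors' deposited table. For the 76 genes of mitochondrial ribosomal proteins the median was -0.11, with 56 below 0, and 1 was called lower and 0 higher. At an unadjusted p under 0.05, 10 were lower and 0 higher.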

How the data were processed

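RNA precipitated with tagged ribosomes from mouse cortex at postnatal day 25 was sequenced in 6 libraries, 3 Rheb cKO and 3 Control. They were grouped by the genotype label. Stranded mRNA libraries followed an anti-HA precipitation, per the labels' protocols. TopHat2 2.1.0 and Cuffdiff 2.2.1 are listed with build mm10 in the submitters' processing notes, without settings. The deposited FPKM values were pooled by the authors over each group. In the deposited log2 column Rheb cKO is divided by Control without a pseudocount (within 1.23e-05 of the log2 ratio of the FPKM columns). The deposited test score was not used for any result, and the p-value and q-value are the authors' own. Depth per library is unknown here. A shorter deposited table was not used for any value here.

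Members and lists were chosen with earlier results of these data known. Named were all called members, the 2 most abundant per complex, all complex II subunits, isoform families and mitochondrial members. Of the pathway lists, ribosomal proteins aside, the called genes were named, and for some lists only the 2 most abundant as well. The other members named complete the account, and further list genes were chosen after their values were seen. Gene IDs were matched to GENCODE M21 (all 67 members) for position, transcript length and GC. The length and GC trend was a quadratic fit over 11439 genes. It was tested on simulated folds with a linear trend and shifted genes drawn at random. That test did not cover a shifted set of mostly short transcripts. Near-identical copies were sought with blastn 2.17.0 (identity 95%, 50% of the transcript). Scripts ran in Python 3.11.15 with scipy 1.17.1, matplotlib 3.10.9, pandas 2.3.3 and numpy 2.4.6. Alternatives were other thresholds, a pseudocount, a filter on low values, centring, the trend removed and members left out.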

Additional observations from a re-analysis of the deposited data

How the results depend on the processing

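No paired analysis was possible because the columns hold 1 pooled value per group and carry no replicate number; for the same reason no replicate could be left out, and how far single libraries decide a value is unknown. The count of members called lower, 8 as reported, was 2 at a q under 0.01 (Cox5a and Atp5e) and 18 at an unadjusted p under 0.05; it was 10 at a q under 0.1, and 6 to 7 with low genes, non-subunits, members with near-identical copies, members that share a Cuffdiff stretch or restricted isoforms left out, the last 3 chosen after the data were seen. The count called higher, 1, was 2 at a q under 0.1 and 3 at an unadjusted p under 0.05. With the length and GC trend removed, medians became -0.0713 for all nuclear subunits, 0.123 for complex II, -0.0277 for complex III and -0.0779 for complex V. That trend accounts by its construction for the moves. Centring on all genes, which shifts every fold by 0.0321, gave 0.03525 for complex II. The other 35 of 44 alternatives for these counts and medians stayed within 1.5 times the reported value and kept its sign. Among single members 7 uncalled ones changed sign with the trend removed and 1 (Atp5f1) with centring. Of the called members 0 did, but their folds lay too far from 0 for steps of this size to change a sign.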
